A study of Mus musculus with 6 samples.

Results

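Aldh1l1, Mlc1, Slc1a3, Slc1a2, Aqp4, Gja1, Fabp7, Fgfr3 and Slc4a4 are 9 genes that are widely used to recognise astrocytes and radial glia, and they were followed here through a study of oligodendrocyte precursor cells from mice with floxed Ift88, a gene needed to build primary cilia. They are 9 of 55416 genes counted in the files. The set was chosen from known marker genes of these cells with the counts of all 6 libraries, cKO against control, already in view. Levels and differences of the 9 genes are therefore given as a description, and no test of them is read as a result. The tested samples were 3 Ift88 cKO libraries (genotype Pdgfra-Cre:Ift88 fl/fl; RosaEYFP). They were set against 3 Ift88 control libraries (genotype Pdgfra-Cre:Ift88 fl/wt; RosaEYFP). Both groups therefore carried the Cre transgene driven by the Pdgfra promoter, a floxed Ift88 allele and the EYFP reporter at the Rosa locus, and differed in whether the other Ift88 allele was floxed or wild type. Cells came from the cortex at postnatal day 11, and each library pooled 4 to 6 mice, so the spread given is that between pools.

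Radial glia are the neural stem cells of the developing brain, and after neurogenesis they give rise to astrocytes and to part of the oligodendrocyte lineage. Astrocytes clear glutamate from synapses, couple to each other through gap junctions, and handle water, potassium and bicarbonate at endfeet on blood vessels. Oligodendrocyte precursors share some of these genes at lower levels, since both lineages arise from the same progenitors.

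The counts are 3' tags, in which a transcript gives about the same number of reads whatever its length, so levels are compared between genes as CPM, the count scaled to the same library total, with no length correction. Total counts were 11773548 to 13909236 in cKO replicates 1 and 3, only 568509 in cKO replicate 2, and 12756650 to 13652035 in the controls. Genes with a count numbered 3651 in cKO replicate 2, against 14047 to 16252 in the other 5 libraries. Depth alone does not describe that library: of 1490 genes that averaged 100 to 300 CPM in the 5 deeper libraries, 877 (58.9%) had 0 or 1 count in it. By counting error alone, a count of 0 allows a level of up to 5.28 CPM in cKO replicate 2 and up to 0.216 to 0.255 CPM in the others, but the missing genes at 100 to 300 CPM show that a 0 in cKO replicate 2 sets no such limit in practice. Every interval here likewise covers counting error only, because copies made by PCR are not independent molecules. The targeted gene Ift88 had 1, 0 and 305 counts in cKO replicates 1 to 3, against 143, 32 and 167 counts in control replicates 1 to 3, so the library labelled cKO replicate 3 was above every control. A 3' tag lies at the end of the transcript, and the deleted exons are not given in the sources used here, so these counts do not check the deletion. For the labelled cell type, 6 of 20 oligodendrocyte precursor markers were at 0 in all of the 5 deeper libraries, Sox10 among them. Olig1 and Olig2 had 32 and 67 counts in cKO replicate 3 and 0 in every other library, so 8 of the 20 markers were at 0 in all 3 controls.

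In the controls the 9 genes fell into a high and a low group by level. Gja1 averaged 234 ± 68.5 CPM, Fabp7 212 ± 155 CPM, Slc1a3 179 ± 98.5 CPM and Slc1a2 46.9 ± 27.5 CPM in controls (SD, n = 3). The ranges of Gja1, Fabp7 and Slc1a3 over the control libraries overlapped, so these 3 genes have no order beyond their spread. The other 5 genes lay close together in the controls, with means of 11.1 ± 5.91 CPM for Aldh1l1, 8.66 ± 7.55 for Slc4a4, 6.96 ± 0.964 for Mlc1, 6.64 ± 2.22 for Fgfr3 and 5.30 ± 6.07 for Aqp4 (SD, n = 3), and their order is likewise within the spread. Slc1a2 was above each of these 5 within every control library, most narrowly in control replicate 2, with 15.5 CPM beside 12.2 CPM for Aqp4.

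In GRCm39, Aldh1l1 (ENSMUSG00000030088) spans 90463409 to 90577185 on chromosome 6, Mlc1 (ENSMUSG00000035805) 88840087 to 88863210 and Slc1a3 (ENSMUSG00000005360) 8663608 to 8740248 on chromosome 15, and Slc1a2 (ENSMUSG00000005089) 102489004 to 102621129 on chromosome 2. Gja1 (ENSMUSG00000050953) spans 56253426 to 56278609 and Fabp7 (ENSMUSG00000019874) 57660977 to 57664546 on chromosome 10. Fgfr3 (ENSMUSG00000054252) spans 33879018 to 33894412 and Slc4a4 (ENSMUSG00000060961) 89034345 to 89387512 on chromosome 5, and Aqp4 (ENSMUSG00000024411) 15522553 to 15544039 on chromosome 18. Counts are reads in any annotated exon of these genes, UTRs included. Fgfr3 shares 998 exon bases with the antisense gene G630022F23Rik and Slc1a2 189 with Gm13872, neither within the last 500 exon bases. Both partners had 0 counts in all 6 libraries, but reads in shared bases were not counted for either gene.

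Summed over the 9 genes, the level was 757, 684 and 598 CPM in cKO replicates 1 to 3, against 663, 981 and 488 CPM in control replicates 1 to 3. The groups overlapped, with means of 680 ± 79.6 CPM in cKO libraries and 710 ± 250 CPM in controls (SD, n = 3), and the cKO mean was 677 CPM without cKO replicate 2. The even sums hide a difference in make-up. Slc1a3 made up 60.0%, 99.7% and 49.1% of the 9-gene counts in the cKO libraries, against 37.3%, 22.8% and 13.6% in the controls. The 5 low genes, grouped here after their values were seen, summed to 0.0719, 0 and 1.70 CPM in the cKO libraries, against 38.5, 39.7 and 37.7 CPM in the controls. In this bulk RNA, fewer cells of a type and less RNA of a gene per cell cannot be told apart.

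**Figure D1:**
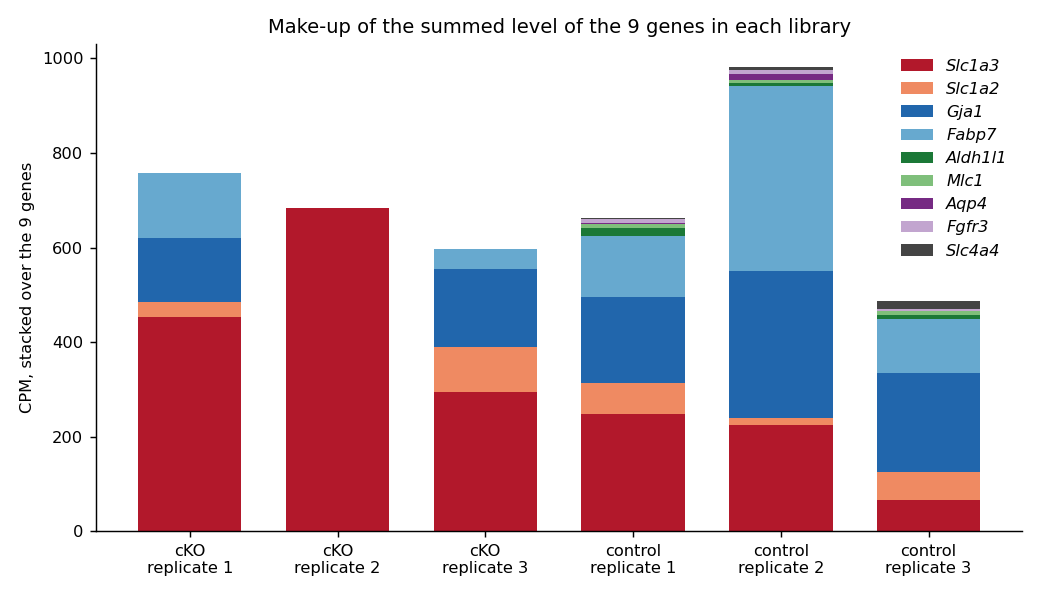
Stacked bars of the level (CPM, vertical axis) of the 9 genes in each library, with the cKO libraries left of the controls. The total is similar in both groups (680 against 710 CPM on average), Slc1a3 makes up nearly the whole bar of cKO replicate 2 (99.7%), and the thin segments of Aldh1l1, Mlc1, Aqp4, Fgfr3 and Slc4a4 at the top are visible only in the controls.

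The glutamate transporters are the genes through which astrocytes take up the transmitter released at synapses. Slc1a3, which encodes GLAST and is already active in radial glia, had 454, 682 and 294 CPM in cKO replicates 1 to 3, against 248, 224 and 66.3 CPM in control replicates 1 to 3. Every cKO library lay above every control library, and the fitted log2 fold change, cKO over control, was 1.36 (SE 1.12), or 1.06 (SE 0.56) without cKO replicate 2. The size moved with the scaling, to 2.32 with RLE size factors and 5.50 with upper-quartile factors. It was also the only one of the 9 genes with more than 1 count in the shallow cKO replicate 2, where it had 388 counts. Slc1a2, the main glutamate transporter of mature astrocytes, had 30.6, 0 and 96.2 CPM in cKO libraries, against 66.4, 15.5 and 58.8 CPM in controls. Its groups overlapped, and cKO replicate 3 was the highest library and cKO replicate 2 the lowest. The log2 fold change of Slc1a2 was -0.14 (SE 1.72) with all libraries and 0.43 (SE 0.74) without cKO replicate 2, and its sign turned in 4 of the 6 fits that left out a library. The number of Slc1a2 counts per Slc1a3 count was 0.0673 and 0.328 in cKO replicates 1 and 3, against 0.268, 0.0693 and 0.887 in controls, with no separation of the groups.

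Gja1 encodes the main connexin of the gap junctions between astrocytes. It had 136, 0 and 164 CPM in cKO replicates 1 to 3, against 182, 312 and 209 CPM in control replicates 1 to 3. All cKO libraries lay below all controls, by a narrow margin in replicates 1 and 3. At the depth of cKO replicate 2 the control mean of Gja1 corresponds to 133 counts, and 0 were recorded. The log2 fold change was -1.23 (SE 1.48), and -0.64 (SE 0.35) without that library; the block on replicate number gave -1.90.

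Fabp7, which encodes the brain fatty acid binding protein of radial glia and young astrocytes, had 136, 1.76 and 42.3 CPM in cKO libraries, against 129, 390 and 115 CPM in controls. The groups overlapped, since cKO replicate 1 lay above control replicates 1 and 3. The control mean corresponds to 120 counts at the depth of cKO replicate 2, where 1 was recorded. Its log2 fold change was -1.80 (SE 1.60), or -1.22 (SE 0.73) without cKO replicate 2, and moved to -3.28 without cKO replicate 1 and to -0.995 without control replicate 2. Gja1 and Fabp7 lie 1.41 Mb apart on chromosome 10, but their ratio was not constant: Fabp7 had 1.003 and 0.258 counts per Gja1 count in cKO replicates 1 and 3, against 0.710, 1.25 and 0.552 in controls.

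**Figure D2:**
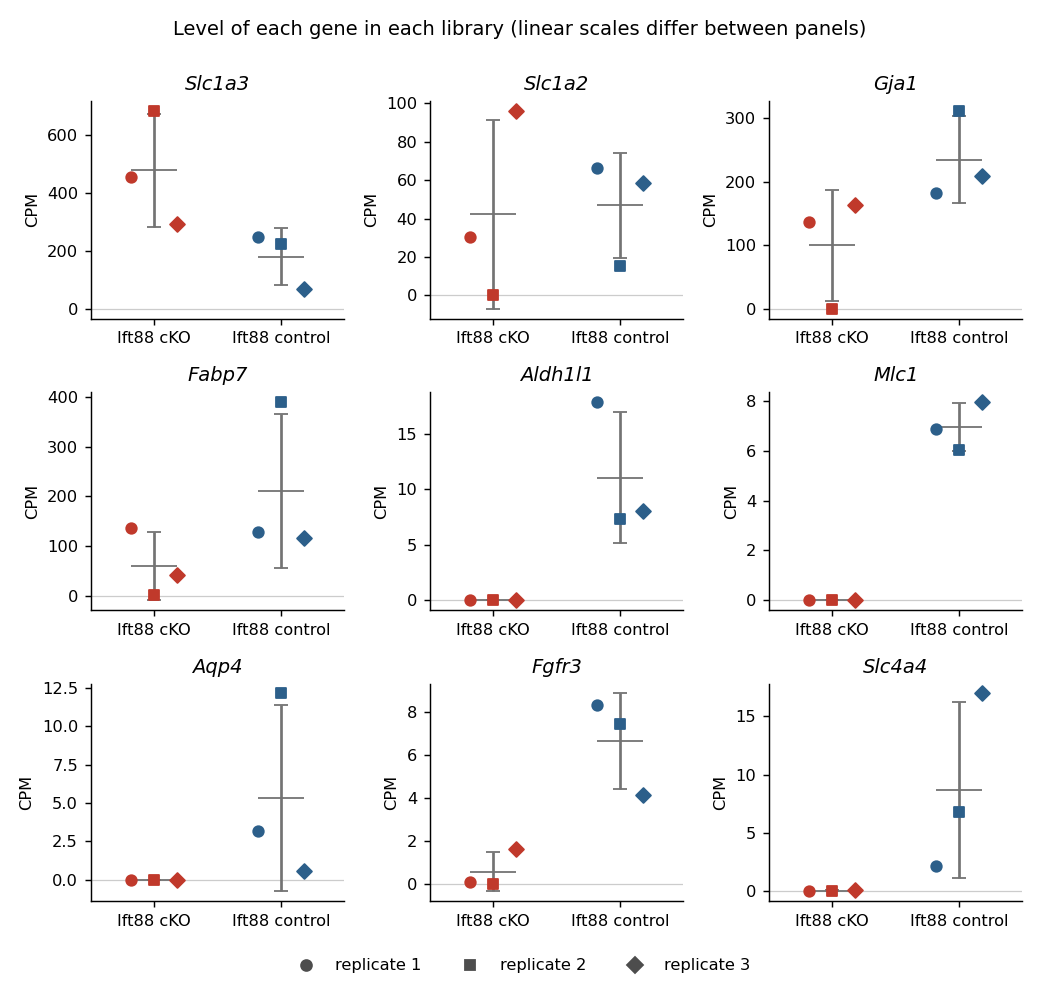
Level of each of the 9 genes (CPM, linear axes that differ between panels) in every library, cKO at the left and control at the right of each panel; marker shapes give the replicate number, and the grey bar and whiskers the mean and SD (n = 3). Slc1a3 is higher in every cKO library than in any control, Slc1a2 and Fabp7 overlap between groups, and Aldh1l1, Mlc1 and Aqp4 are at 0 in all 3 cKO libraries.

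Aldh1l1, a folate enzyme (formyltetrahydrofolate dehydrogenase) and the most used pan-astrocyte marker, had 0 counts in all 3 cKO libraries, against 244, 93 and 109 counts in control replicates 1 to 3. In CPM the controls were at 17.9, 7.29 and 8.03. By counting error alone, a 0 allows up to 3 counts over the whole cKO group. On that limit the pooled level was at least 97.6-fold lower in cKO libraries (at least 95.5-fold without cKO replicate 2). In practice a 0 sets no such limit. Of genes at 10 to 20 CPM in the other controls, 6.47%, 12.5% and 5.37% were at 0 in control replicates 1 to 3. Of the last 500 exon bases of Aldh1l1, from which 3' tags mostly come, 49.0% are shared with the antisense gene Gm15756. It had 0 counts in all 6 libraries, as did Gm45901, which shares 105 exon bases further upstream. Reads in exons of 2 genes were not counted for either, so these 0s do not show how many Aldh1l1 reads were lost. The level of Aldh1l1 may be too low in every library for that reason, which was not tested. Mlc1 encodes a membrane protein of astrocyte endfeet that is mutated in a human leukodystrophy. It had 0 counts in all 3 cKO libraries, against 94, 77 and 108 counts in controls, the tightest spread of the 9 genes (6.96 ± 0.964 CPM; SD, n = 3). On the same limit for counting error alone, its pooled level was at least 61.1-fold lower in cKO libraries, or at least 59.7-fold without cKO replicate 2. Mlc1 shares no exon base with another gene. Neither value depends on the shallow library: the control means of Aldh1l1 and Mlc1 correspond to 6.29 and 3.96 counts at its depth, and cKO replicates 1 and 3 were at 0 as well.

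Aqp4, the water channel of astrocyte endfeet, was the third gene without a count in any cKO library. The controls had 43, 155 and 8 counts, a range of 20.6-fold in CPM, so control replicate 2 held most of them. On the limit for counting error alone, the pooled level was at least 45.1-fold lower in cKO libraries and at least 44.1-fold without cKO replicate 2. Leaving out cKO replicate 3, which removes much of the cKO depth, these limits fell to at least 53.8-fold for Aldh1l1, 33.7-fold for Mlc1 and 24.9-fold for Aqp4. With all 6 libraries Aqp4 did not pass the filter on low counts and was not fitted.

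The other low genes had counts in cKO replicate 3 only or nearly so. Fgfr3, a fibroblast growth factor receptor of radial glia and astrocytes, had 1, 0 and 19 counts in cKO libraries, against 114, 95 and 56 counts in controls. The groups did not overlap, and pooled controls stood 8.70 times above pooled cKO libraries in CPM (95% interval for counting error 5.52 to 14.5). Of the 20 pooled cKO counts 19 came from cKO replicate 3, and without that library the ratio was 96.0 (17.1 to 3805). Its fitted log2 fold change, cKO over control, was -3.37 (SE 2.81), -3.004 (SE 2.67) without cKO replicate 2 and -6.47 without cKO replicate 3. Slc4a4, which encodes the sodium bicarbonate cotransporter of astrocytes, had 0, 0 and 1 count in cKO libraries, against 30, 87 and 230 counts in controls. The control values spread over 7.71-fold in CPM and all lay above the cKO values. With 1 cKO count, pooled controls stood 228 times above pooled cKO libraries in CPM (95% interval for counting error 40.6 to 9026). That count is in cKO replicate 3. Without that library the level was at least 41.9-fold lower in cKO libraries on the limit for counting error alone.

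The promoter windows of Aldh1l1 and Mlc1, both at 0 in every cKO library, are shown beside that of Slc1a3, the gene that was higher in every cKO library, because the series title names CREB and Hedgehog signalling, whose factors bind the motifs CRE and GLI. Each is the 250 bases before the start site from RefSeq (GRCm38.p6, a build other than that of the counts), 5′ to 3′ on the gene's strand: chr6:90550543-90550792 on the plus strand for Aldh1l1, chr15:88978554-88978803 on the minus strand for Mlc1 and chr15:8710808-8711057 on the minus strand for Slc1a3. Capitals mark matches, on either strand, to the CCAAT box CCAAT, the GC box GGGCGG, the TATA box TATAAA, the STAT motif TTCNNNGAA and the CRE core TGACG.
Aldh1l1: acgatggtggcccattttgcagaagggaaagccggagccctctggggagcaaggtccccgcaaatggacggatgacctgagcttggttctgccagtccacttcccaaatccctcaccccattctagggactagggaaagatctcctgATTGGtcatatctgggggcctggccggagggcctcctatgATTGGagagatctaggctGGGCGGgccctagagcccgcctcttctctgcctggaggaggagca
Mlc1: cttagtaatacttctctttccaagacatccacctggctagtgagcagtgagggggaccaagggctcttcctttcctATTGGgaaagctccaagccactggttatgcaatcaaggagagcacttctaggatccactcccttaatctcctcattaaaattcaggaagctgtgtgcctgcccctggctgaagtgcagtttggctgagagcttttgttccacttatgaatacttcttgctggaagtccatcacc
Slc1a3: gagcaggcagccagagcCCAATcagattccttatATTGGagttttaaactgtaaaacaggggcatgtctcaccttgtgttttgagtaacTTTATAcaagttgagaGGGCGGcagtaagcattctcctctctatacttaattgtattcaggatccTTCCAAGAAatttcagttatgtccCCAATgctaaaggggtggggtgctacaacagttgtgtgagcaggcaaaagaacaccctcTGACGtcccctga

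Across 10 windows of 8 of the 9 genes (Fgfr3 and Slc4a4 have 2 each, and that of Aqp4 was not analysed here), none held the whole CRE TGACGTCA or the GLI motif TGGGTGGTC, which 1.55% and 0.225% of all 32851 promoter windows of this length hold. The CRE core TGACG, which is also part of the whole CRE, was present in the windows of Slc1a3 and Gja1, against 17.8% of all windows. Aldh1l1 held the CCAAT box at 2 places and the GC box at 1, and Mlc1 the CCAAT box at 1, motifs found in 33.9% and 32.7% of all windows. The window of Aldh1l1 had 59.6% G and C and that of Mlc1 48.0%, against 44.8% for Slc1a3 and a median of 52.4% over all windows. These are descriptions of the letters in a window and say nothing of binding.

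Counted over the 9 genes, 6 (Aldh1l1, Mlc1, Aqp4, Gja1, Fgfr3 and Slc4a4) had every cKO library below every control in CPM, 1 (Slc1a3) had every cKO library above, and 2 (Slc1a2 and Fabp7) overlapped. Aqp4 was not tested with all libraries. Of the 8 tested, 5 had every cKO library below and 1 every cKO library above the controls. Among all 12833 genes tested, these shares were 11.1% and 1.33%. Without cKO replicate 2 all 9 genes were tested and the counts were 6 below and 1 above. The shares among 14562 genes tested were 12.6% below and 13% above. Since these same values were known when the 9 genes were picked, nothing is read from the counts.

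A count of 0 in a single library was more common at the level of the 5 low genes than at that of the other 4. Among all genes that averaged 5 to 10 CPM in controls, the range of Slc4a4, Mlc1, Fgfr3 and Aqp4, 32.9% were at 0 in cKO replicate 1 and 13.3% in cKO replicate 3. In the controls 19.0%, 28.8% and 13.2% of genes were at 0 in replicates 1 to 3 when the other 2 controls averaged 5 to 10 CPM. Between 10 and 20 CPM, the range of Aldh1l1, these shares were 17.9% and 3.57% in cKO replicates 1 and 3, against 6.47%, 12.5% and 5.37% in the controls, and from 100 to 500 CPM they did not pass 0.190% in any of the 5 deeper libraries. A 0 in both cKO replicates 1 and 3 was less common. It was found in 8.0% of genes averaging 5 to 10 CPM in controls and in 2% at 10 to 20 CPM. The stricter pattern of Aldh1l1 and Mlc1, at least 20 counts in every control and 0 in every cKO library, was met by 94 of 9807 genes detected in this way (0.958%). It was met by 47 of 905 such genes (5.19%) averaging 5 to 10 CPM in controls and by 26 of 1874 (1.39%) averaging 10 to 20 CPM. Asking for 0 only in cKO replicates 1 and 3, it was met by 103 of the 9807 genes (1.05%). In the other direction, 89 of 9885 genes (0.900%) had at least 20 counts in cKO replicates 1 and 3 and 0 in all 3 controls. That direction asks for 20 counts in 2 libraries instead of 3.

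**Figure D3:**
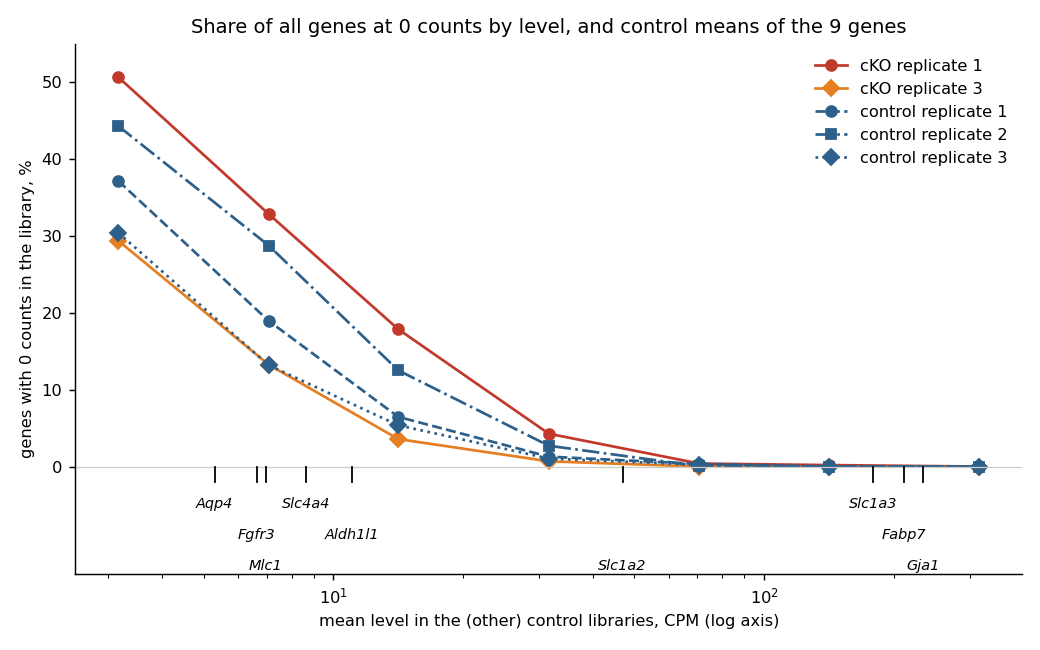
Share of all genes with 0 counts in a library (%, vertical axis) by their mean level in the control libraries, or in the other controls for a control library (CPM, log axis), for the 5 deeper libraries; black ticks below give the control mean of each of the 9 genes. The share falls from 29.4% to 50.7% of genes at 2 to 5 CPM to at most 0.190% at 100 CPM and above; Aldh1l1, Mlc1, Aqp4, Fgfr3 and Slc4a4 lie on the steep part and Slc1a3, Fabp7 and Gja1 on the flat part.

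None of the 9 genes was past an adjusted p of 0.05 in edgeR's quasi-likelihood test across all genes, where 0.0156% of 12833 genes were called with all libraries and 0.00687% of 14562 without cKO replicate 2. Aldh1l1, Mlc1, Fgfr3 and Slc4a4 passed the filter on low counts through the controls alone. An unadjusted p under 0.05 was given to 3 of the 9 genes with all libraries, where 363 of 12833 genes (2.83%) had one, and to 2 without cKO replicate 2, where 887 of 14562 (6.09%) had one. DESeq2 called 0 with all libraries. DESeq2 without cKO replicate 2, a setting chosen after the data were seen, called Aldh1l1, Mlc1 and Slc4a4 lower in cKO libraries, where it called 1.22% of 14562 genes lower. Since the 9 genes were picked with these values known, and the called ones are at 0 or 1 count in cKO libraries, nothing is read from these counts.

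The families of the 9 genes hold relatives with higher and with lower values in the cKO libraries. Among the SLC1 transporters, Slc1a6, a glutamate transporter best known from cerebellar neurons, had 46.5, 0 and 62.4 CPM in cKO libraries, against 37.9, 19.9 and 1.99 CPM in controls. The neutral amino acid transporter genes Slc1a4 and Slc1a5 had 72.4, 0 and 78.6 CPM and 11.3, 0 and 27.3 CPM in cKO libraries, against 68.4, 76.1 and 41.1 CPM and 72.9, 16.7 and 40.9 CPM in controls. Slc1a1 and Slc1a7 had at most 136 counts in any library. Of 7 SLC1 genes, Slc1a3 and Slc1a2 included, 5 were tested with all libraries, and 0 were called by edgeR or DESeq2 (0 at an unadjusted p under 0.05).

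Fgfr3 stood beside receptors that were not low in the cKO libraries. Fgfr1, the broadly expressed receptor, had 1892, 0 and 1261 counts in cKO libraries, against 764, 382 and 854 counts in controls; without cKO replicate 2 edgeR gave it a log2 fold change of 1.32 with an SE of 0.44 and an adjusted p of 0.767. Fgfr2 had 29.8, 0 and 51.6 CPM in cKO libraries, against 11.1, 25.8 and 27.9 CPM in controls. Leaving out cKO replicate 2, the cKO values of Fgfr1, Fgfr2 and Fgfr4 lay above all controls, as did those of 13% of all 14562 genes tested. Fgfr4 and Fgfrl1 were sparse, with 12, 0 and 65 and with 0, 0 and 2 counts in cKO libraries, against 1, 0 and 0 and 147, 0 and 53 counts in controls.

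Among the bicarbonate transporters, Slc4a3 had 102, 0 and 91.3 CPM in cKO libraries, against 16.5, 30.7 and 13.6 CPM in controls; without cKO replicate 2 edgeR gave it a log2 fold change of 2.26 with an SE of 0.54 and an adjusted p of 0.767. Slc4a2 went the other way, with 36.1, 1.76 and 49.1 CPM in cKO libraries, against 71.6, 89.4 and 146 CPM in controls. Slc4a8 overlapped between groups at 46.9, 0 and 28.6 CPM in cKO libraries, against 40.7, 14.0 and 27.4 CPM in controls. The sparse genes Slc4a1, Slc4a5, Slc4a7 and Slc4a10 had at most 636 counts in any library. Of 7 SLC4 genes tested, Slc4a4 included, edgeR called 0 in each fit (1 at an unadjusted p under 0.05 with all libraries and 2 without cKO replicate 2). DESeq2 called 0 with all libraries, and Slc4a3 higher and Slc4a4 lower without cKO replicate 2. Slc4a4 was picked with its values known, so nothing is read from its call.

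Other aquaporins and connexins were mostly sparse. Aqp1, the water channel of choroid plexus, had 69.9, 0 and 58.0 CPM in cKO libraries, against 186, 56.2 and 12.7 CPM in controls, and Aqp11 had 692, 0 and 121 counts in cKO libraries, against 202, 232 and 0 counts in controls. Aqp5 had 133, 0 and 0 counts in cKO libraries, against 0, 75 and 31 counts in controls. Aqp3 had counts in control replicate 3 only, at 86. The connexin gene Gjd2, which forms electrical synapses between neurons, had 391, 0 and 294 counts in cKO libraries, against 1, 0 and 0 counts in controls. Gja6 had 3, 0 and 6 counts in cKO libraries, against 109, 248 and 4 counts in controls, and Gjb2 had 0, 1 and 0 counts against 0, 270 and 50. Other connexin genes overlapped between groups. Gja5 had 142, 0 and 49 counts in cKO libraries, against 86, 0 and 271 counts in controls. Gjc1 had 0, 0 and 87 counts against 142, 0 and 0, and Gjd3 had 0, 0 and 43 counts against 55, 0 and 50. Gjb6, the second astrocyte connexin gene, had 0 counts in all 6 libraries, as did 10 further connexin genes. Among the 3 aquaporin, 4 connexin and 3 FGF receptor genes tested with all libraries, Gja1 and Fgfr3 included, edgeR and DESeq2 called 0, with 0 at an unadjusted p under 0.05 in edgeR; DESeq2 without cKO replicate 2 called Gjd2 higher. Of the fatty acid binding protein genes, only Fabp7 and Fabp3 reached 20 counts in a library.

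Genes whose proteins work beside Mlc1 and Aqp4 at the endfoot had values on both sides. Hepacam, which encodes the adhesion partner of Mlc1, and the potassium channel genes Kcnj10 and Kcnj16 had 0 counts in all 6 libraries. Dmd, which encodes dystrophin, had 196, 1.76 and 246 CPM in cKO libraries, against 137, 52.0 and 152 CPM in controls. Its partner genes Dag1 and Dtna overlapped between groups, with 199, 7.04 and 278 CPM and with 43.9, 1.76 and 120 CPM in cKO libraries, against 165, 234 and 255 CPM and 110, 121 and 101 CPM in controls. Leaving out cKO replicate 2, 11 genes of the list were tested. Of these, 4, Dmd among them, had both cKO libraries above every control, beside 13% of all 14562 genes tested. In 1, Cav1, both lay below, beside 12.6% of all genes tested. Nothing is read from these counts, and Hepacam, Kcnj10, Kcnj16, Dmd, Dag1 and Dtna were chosen with their values in view. Of 16 such genes 10 were tested with all libraries and 0 were called by edgeR (0 at an unadjusted p under 0.05, and 0 by DESeq2). The 2 with the smallest p were Cav1, with 0, 0 and 106 counts in cKO libraries against 210, 471 and 852 counts in controls, and Sntb1, with 0, 0 and 116 counts against 231, 73 and 59. Around Aldh1l1, edgeR called 0 of 14 tested genes of folate and serine metabolism, Aldh1l1 included (2 at an unadjusted p under 0.05). DESeq2 called 0 with all libraries and Aldh1l1 and Shmt2 lower without cKO replicate 2. Aldh1l1 was picked with its values known, so nothing is read from its call. Shmt2, a mitochondrial serine hydroxymethyltransferase, had 80.8, 1.76 and 155 CPM in cKO libraries, against 688, 411 and 247 CPM in controls (edgeR without cKO replicate 2: log2 fold change -1.95, SE 0.53, adjusted p 0.767).

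Beyond the 9 genes, the wider astrocyte programme was not uniformly low. Of 58 other astrocyte genes, 36 were tested with all libraries and 40 without cKO replicate 2, and edgeR called 0 in each fit (0 and 2 at an unadjusted p under 0.05; DESeq2 called 0 and 1). The median log2 fold change of the list was -0.17, beside -0.44 for all genes tested, and -0.07 beside -0.06 without cKO replicate 2. With all libraries 14 fold changes were positive and 22 negative. S100b, a calcium binding protein, had 113, 0 and 192 CPM in cKO libraries, against 96.8, 65.7 and 28.5 CPM in controls. Glul, the glutamine synthetase that converts the glutamate taken up, had 168, 290 and 112 CPM in cKO libraries, against 229, 167 and 243 CPM in controls. Prdx6, an antioxidant enzyme, had 174, 871 and 165 CPM in cKO libraries, against 256, 341 and 653 CPM in controls. Aldoc, a glycolytic enzyme, had 120 CPM in cKO replicate 1, 0 in replicate 2 and 75.7 in replicate 3, against 208, 254 and 81.7 CPM in controls. The endothelin receptor gene Ednrb had 42.1, 0 and 92.4 CPM in cKO libraries, against 185, 343 and 45.8 CPM in controls. S100b, Glul, Prdx6, Aldoc, Ednrb, Elovl2 and Paqr6 were chosen after their values were seen. By its small p Lfng was also picked, with 0, 103 and 0 counts in cKO libraries, against 145, 0 and 64 counts in controls. Of the list, 3 genes had counts in cKO libraries only. Another 7 had counts in controls only, none of them in all 3 controls. Among these 7, Elovl2 had 0 counts in all cKO libraries, against 0, 67 and 62 counts in controls. Paqr6 had 0 in all cKO libraries, against 65, 74 and 0 counts in controls.

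The radial glia genes had a lower median than all genes, and edgeR called 0. Of 30 others, 22 were tested with all libraries and 23 without cKO replicate 2 (0 called by edgeR in each, 2 and 4 at an unadjusted p under 0.05, and 0 by DESeq2, or 1 without cKO replicate 2, Sox2). The median log2 fold change was -1.02, beside -0.44 for all genes, and -0.49 beside -0.06 without cKO replicate 2. Vim, an intermediate filament gene, had 1769, 186 and 2149 CPM in cKO libraries, against 1895, 5947 and 4493 CPM in controls (edgeR: log2 fold change -1.59, SE 0.44, adjusted p 0.349). Sox2, a stem cell transcription factor, had 212, 5.28 and 163 CPM in cKO libraries, against 482, 416 and 481 CPM in controls. Lhx2, a transcription factor of cortical progenitors, had 2910, 1 and 3493 counts in cKO libraries, against 117, 1 and 0 counts in controls (edgeR without cKO replicate 2: log2 fold change 6.41, SE 1.76, adjusted p 0.767).

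**Figure D4:**
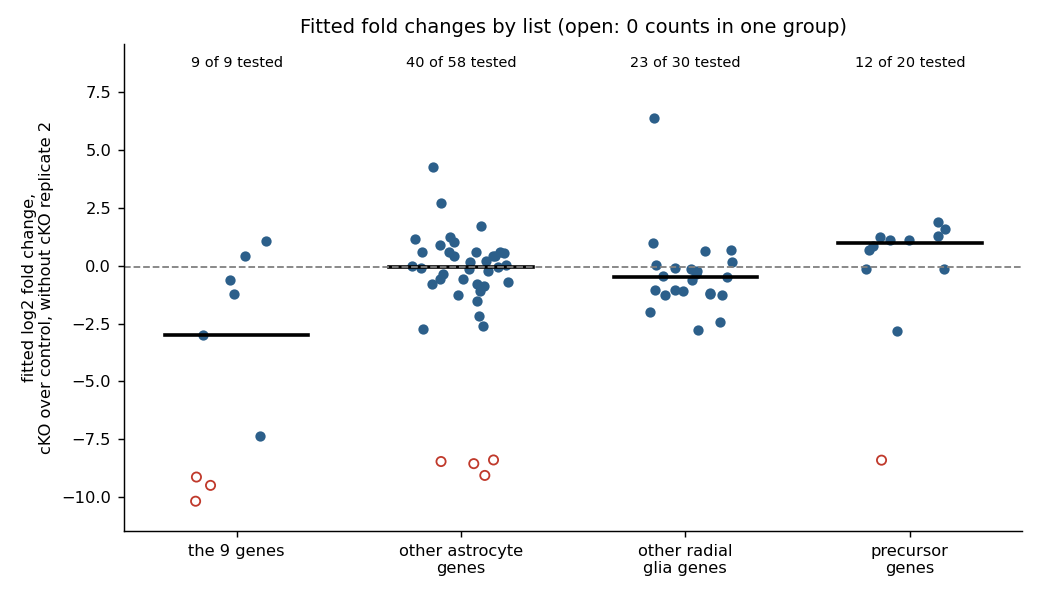
Fitted log2 fold changes, cKO over control without cKO replicate 2 (vertical axis), of the genes that could be tested in each list; black bars are list medians and the dashed line the median of all genes tested (-0.06). Open circles have 0 counts in 1 group, so their fitted value depends on the fit and is no bound. The 9 genes have a median below every other list shown, while the other astrocyte genes centre on -0.07 and the other radial glia genes on -0.49. Since the 9 genes were picked with these values known, nothing is read from their median. They hold 3 open circles, and the other astrocyte genes (F3, Paqr6, Lfng and Elovl2) and the precursor genes (Matn4) hold open circles as well.

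Markers of other cells moved between libraries as well, and their part in the values above was not tested. The 17 neuron markers summed to 9247, 2179 and 9445 CPM in cKO libraries, against 8333, 6852 and 2521 CPM in controls, so the neuron sum of control replicate 3 was near that of cKO replicate 2. The 20 precursor markers summed to 485, 8.79 and 439 CPM in cKO libraries, against 492, 586 and 339 CPM in controls. The 12 choroid plexus markers summed to 637, 49046 and 878 CPM in cKO libraries, against 367, 169 and 126 CPM in controls, and the 10 leptomeningeal markers to 6109, 767 and 3128 CPM against 1081, 2326 and 3121 CPM. The 58 other astrocyte genes summed to 3500, 3979 and 3053 CPM in cKO libraries, against 3148, 3786 and 3603 CPM in controls. In cKO replicates 1 and 3 32 and 35 of them had at least 20 counts, against 37, 34 and 39 in the controls.

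**Figure D5:**
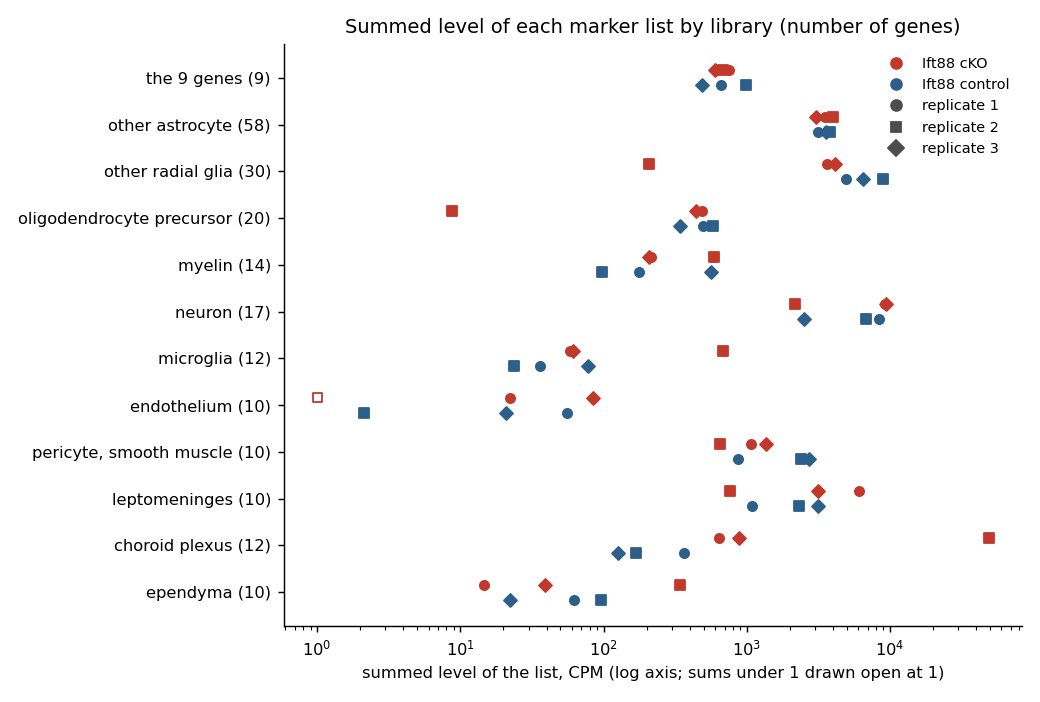
Summed level of each marker list (CPM, log axis) in every library, cKO points above control points in each row; marker shapes give the replicate number and brackets the number of genes. The 9 genes and the other astrocyte genes span narrow ranges in both groups, while cKO replicate 2 stands far from the rest for choroid plexus (49046 CPM) and precursor markers (8.79 CPM).

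The gene whose level followed the summed level of the 9 genes most closely was Itm2c, a membrane protein gene, with a Pearson correlation of 0.97 on the log2(CPM + 1) scale over 6 libraries among 9914 genes compared. It had 10489, 316 and 6301 counts in cKO libraries, against 7810, 12010 and 5924 counts in controls. Fibp followed with 0.90 and 5379, 208 and 4522 counts in cKO libraries, against 4786, 5560 and 4398 counts in controls. Abhd11, Fli1 and Nhlh1 came next at 0.87, 0.85 and 0.85, on sparse counts of at most 433. Since Slc1a3, Gja1 and Fabp7 dominate the sum, the order says little of the other members, and the points share depth differences between libraries. These are the top ranks among 9914 genes over only 6 libraries, so nothing is read from them.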

How the data were processed

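The authors deposited raw read counts per gene for each of the 6 libraries, made with featureCounts 2.0.0 on exons summed by gene identifier (Ensembl release 104, GRCm39), per the file headers. Libraries were prepared with a QuantSeq 3' kit (FWD), per the labels' protocols. No strand option is named, so counting was unstranded and reads in exons of 2 genes or with several alignments were not counted. The submitters' processing notes also name STAR, FastQC and DESeq2 but give no step for them.

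Symbols were matched by gene identifier (52083 of 55416). Genes kept by filterByExpr were scaled by TMM and tested, cKO against control, with edgeR 4.0.16 (glmQLFit robust, glmQLFTest, two-sided, Benjamini-Hochberg, R 4.3.3); the standard error was the log2 fold change divided by the square root of F. DESeq2 1.42.0 was an alternative, on the same genes. CPM used the library total without TMM. Pooled ratios had a limit of 3 counts or an exact 95% interval for counting error only. The fits were tested on simulated data, and with little spread both tools recovered nearly all changed genes. With a large spread, the same for every gene, edgeR recovered none and DESeq2 made more false calls than true ones. That spread was above those estimated here: the common dispersion was 1.79 with all libraries and 1.32 without cKO replicate 2. The median over genes was 1.55 and 0.862. The simulation therefore does not show what either tool can find in these data. The 9 genes and all lists were chosen with earlier results of these data known. Named besides the 9 genes were the 2 genes of each list with the smallest p, overlapping genes, family members with at least 20 counts and the 5 genes most alike in level; genes this rule selects among markers of other cell types are covered by their list sums, and 1 gene it selects in the astrocyte list is not reported here by name, though it is in that list's counts. Outside this rule, Sox10, Olig1, Olig2, Hepacam, Kcnj10, Kcnj16, Gjb6, Dmd, Dag1, Dtna and Sox2 were named with their values in view. So were S100b, Glul, Prdx6, Aldoc, Ednrb, Elovl2 and Paqr6. The 5 low genes were grouped after their values were seen. Figures were drawn with matplotlib 3.10.9.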

Additional observations from a re-analysis of the deposited data

How the results depend on the processing

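With all 6 libraries edgeR called 1 gene higher and 1 lower in cKO libraries. The higher count was 14 with RLE size factors, 0 with upper-quartile factors, 22 without a filter, 2 with a filter of 5 CPM in 3 libraries, 3 with DESeq2 and 0 with the replicate block, and ran from 0 to 6 when a library was left out (0 without cKO replicate 2, and 0 without any control). The lower count was 2 with RLE factors, 0 with upper-quartile factors and 2 with DESeq2, and stayed at 1 in the other edgeR fits, the replicate block and each left-out library included. DESeq2 without cKO replicate 2, chosen after the data were seen, called 120 higher and 178 lower, and 3 of the 9 genes; the other 12 alternatives called 0 of the 9. The cause of these changes was not tested. The deviations of same-numbered libraries from their group means correlated at 0.083, 0.048 and -0.0067. With 3 libraries in a group the deviations are tied to each other. These values are therefore not separate checks and cannot decide whether same-numbered libraries pair. The block on replicate number changed the call of none of the 9 genes.

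The sum over the 9 genes, cKO over control, was 0.956, and 0.827 to 1.18 when a library was left out; it changed direction without cKO replicate 3 (1.01) and without control replicate 2 (1.18). The 6 genes lower in every cKO library were 6 or 7 under each alternative. The log2 fold change of Slc1a2 (-0.14) turned positive in 6 of 13 alternatives: with upper-quartile factors (0.24), with DESeq2 without cKO replicate 2 (0.44), and without cKO replicate 1, cKO replicate 2, control replicate 1 or control replicate 3 in turn. It ran from -1.52 to 0.43 over the left-out libraries. The other 7 fitted genes kept their sign in every fit, Slc1a3 between 0.93 and 5.50. The median log2 fold change of all genes was -0.44 in the main setting, -0.01 with upper-quartile factors, -0.06 without cKO replicate 2 and -1.23 with the replicate block. Depth limits what cKO replicate 2 can show, and genes far above its counting limit of 5.28 CPM were missed there as well.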

Other observations

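The 4 abundant genes, Slc1a3, Slc1a2, Gja1 and Fabp7, had summed levels of 757, 684 and 596 CPM in cKO libraries, against 624, 941 and 450 CPM in controls. Over the same libraries the 5 low genes, grouped after their values were seen, stayed within 37.7 and 39.7 CPM in the controls although their single values varied: Slc4a4 ranged over 7.71-fold and Aqp4 over 20.6-fold between controls, and Aqp4 was highest where Slc4a4 was intermediate. The even sum is a description of 3 pools.

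A gene of inhibitory neurons had the pattern of Aldh1l1 and Mlc1. Gad1, the enzyme that makes GABA, had 0 counts in all cKO libraries, against 992, 901 and 61 counts in controls (adjusted p = 0.228, edgeR), and Gad2 had 0, 1 and 0 counts against 373, 299 and 1. Precursor genes did not move together: C1ql1 had 20.3, 1.76 and 29.1 CPM in cKO libraries, against 92.0, 297 and 135 CPM in controls, and Cacng4 had 1936, 0 and 1119 counts in cKO libraries, against 555, 510 and 524 counts in controls.

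The share of genes with a count that had only 1 to 19 counts was 23.9%, 58.4% and 18.1% in cKO libraries, against 19.5%, 20.6% and 18.3% in controls.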
